A study of Homo sapiens with 6 samples.

Results

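The genes described here encode the proteasome and the factors that build it. They were the entries of the deposited gene table whose symbol begins with PSMA to PSMG followed by a number and whose description does not name a pseudogene, which gave 47 of 31835 genes. MDA-MB-231 cells, an established human cell line from triple-negative breast cancer, were profiled by RNA-seq. The labels gave 3 libraries of cells with the vector and 3 of cells with ADAMTS1, all from the same line, with no drug, time point or batch named. ADAMTS1 is a secreted metalloprotease of the extracellular matrix, and the series title places the comparison in work on its nuclear zymogen in chemoresistance and metastasis. The form that the construct encoded, its promoter, and whether the cells were a clone or a pool are not stated in the labels.

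The proteasome degrades proteins that carry ubiquitin chains. Its core is a barrel of stacked rings, in which alpha subunits (PSMA genes) form the gated outer rings and beta subunits (PSMB genes) the inner rings, and PSMB5, PSMB6 and PSMB7 carry the constitutive active sites. A cap binds the end of the barrel: its ring of ATPases (PSMC genes) unfolds the substrate, and its other subunits (PSMD genes) bind ubiquitin and cut the chain off. Interferon induces PSMB8, PSMB9 and PSMB10, which replace the constitutive catalytic subunits to make the immunoproteasome, a form known for supplying peptides to MHC class I molecules. Interferon also induces PSME1 and PSME2, which form an alternative activator that opens the barrel without ATP. Dedicated chaperones (PSMG genes, PSMD5, PSMD9 and PSMD10) assemble the rings and then leave. Tumour cells depend on this machinery, which is the target of drugs such as bortezomib.

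The 5 interferon-inducible genes had the lowest changes among the proteasome genes, as given below, and their promoters are shown for that reason. Each window holds the 250 bases before a RefSeq start (GRCh38.p14), 5′ to 3′ on the gene's strand. Capitals mark matches, on either strand, to 3 motifs: GAAA, any 2 bases and GAAA again, the core of the interferon-stimulated response element, TTCNNNGAA, the gamma-activated site, and TGACNNNGC, the core of the antioxidant response element. PSMB8 has a pair of annotated starts. By the deposited gene positions, its inner window and the windows of PSMB9 and PSME2 lie within their genes. The windows of PSMB10 and PSME1 overlap their genes in part.
PSMB10 (chr16:67936851-67937100, - strand): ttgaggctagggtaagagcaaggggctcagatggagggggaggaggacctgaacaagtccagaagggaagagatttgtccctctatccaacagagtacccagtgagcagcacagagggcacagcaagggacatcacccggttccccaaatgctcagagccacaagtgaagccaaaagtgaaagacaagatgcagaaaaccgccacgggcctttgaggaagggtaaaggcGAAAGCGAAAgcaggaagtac
PSMB8, outer start (chr6:32844680-32844929, - strand): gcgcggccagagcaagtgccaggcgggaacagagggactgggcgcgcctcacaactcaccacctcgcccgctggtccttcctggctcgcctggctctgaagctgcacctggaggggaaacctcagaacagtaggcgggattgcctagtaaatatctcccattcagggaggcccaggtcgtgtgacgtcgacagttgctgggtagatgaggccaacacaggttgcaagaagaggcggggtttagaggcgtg
PSMB8, inner start (chr6:32844048-32844297, - strand): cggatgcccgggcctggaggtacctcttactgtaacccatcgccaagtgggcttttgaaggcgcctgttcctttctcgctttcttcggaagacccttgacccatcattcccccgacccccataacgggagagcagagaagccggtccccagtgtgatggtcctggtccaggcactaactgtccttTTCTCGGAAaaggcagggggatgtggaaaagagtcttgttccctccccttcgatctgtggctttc
PSMB9 (chr6:32853942-32854191, + strand): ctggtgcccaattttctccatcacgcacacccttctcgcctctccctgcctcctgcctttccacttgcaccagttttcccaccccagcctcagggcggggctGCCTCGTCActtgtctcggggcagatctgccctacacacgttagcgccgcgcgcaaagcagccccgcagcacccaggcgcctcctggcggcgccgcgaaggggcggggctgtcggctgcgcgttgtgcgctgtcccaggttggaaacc
PSME1 (chr14:24135944-24136193, + strand): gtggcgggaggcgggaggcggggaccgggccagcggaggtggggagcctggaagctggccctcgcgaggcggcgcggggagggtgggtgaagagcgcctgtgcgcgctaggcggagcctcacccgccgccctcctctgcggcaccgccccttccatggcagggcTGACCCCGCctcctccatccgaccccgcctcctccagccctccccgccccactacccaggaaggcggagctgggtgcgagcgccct
PSME2 (chr14:24146611-24146860, - strand): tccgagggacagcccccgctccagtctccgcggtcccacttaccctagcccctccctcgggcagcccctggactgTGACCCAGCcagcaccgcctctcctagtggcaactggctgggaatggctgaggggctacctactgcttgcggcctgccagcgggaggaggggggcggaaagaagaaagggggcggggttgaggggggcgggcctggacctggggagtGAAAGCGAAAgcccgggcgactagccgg

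The response element core GAAAGCGAAA lay 21 bases before the PSMB10 start and 28 bases before the PSME2 start, counted to its first base. PSMG4, an assembly chaperone gene, held the same letters 33 bases before its start, and PSMA4 and PSMB4 held other matches to the motif. In all, 5 of 50 windows from 41 proteasome genes had a match (10%), against 3.02% of the 35116 windows in the table. The gamma-activated site was matched in 12.0% of the proteasome windows and 6.57% of all windows. Among the 6 windows shown it was matched in 1 (16.7%), the inner PSMB8 window, where TTCTCGGAA began 65 bases before the start. Of the other 44 proteasome windows 5 had a match (11.4%), before PSMA2, PSMB5, PSMC4, PSMD3 and PSME3. Neither motif was found in these letters before PSMB9 or PSME1. A match is a description of the sequence and not a measured binding site.

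ADAMTS1 itself was at 6.56, 6.72 and 6.99 FPKM with the vector, and its level with ADAMTS1 was 499, 462 and 501 FPKM. FPKM counts fragments relative to transcript length and to the mapped fragments of the library, so levels can be compared between genes. The log2 change of ADAMTS1 was 5.98 ± 0.040 (SE, n = 3 per group; limma, adjusted p = 8.76e-10), and each library matched its label. All 6 markers of the mesenchymal line were present, and none passed the threshold. They summed to 947 to 982 FPKM with the vector and 961 to 981 FPKM with ADAMTS1. In all ADAMTS1 libraries 2 of them, EGFR and AXL, lay lower, beside 10.6% of all tested genes. MSN lay higher, 1 gene beside 8.15%. Of 8 luminal and epithelial markers 4 were below the level needed for testing. KRT8 was at means of 62.01 and 61.5 FPKM and KRT18 at 75.7 and 72.7 FPKM, and their groups overlapped. EPCAM, at 2.74 and 3.28 FPKM, and FOXA1, at 1.14 and 1.23 FPKM, were also tested and had overlapping groups. Of 8 haematopoietic markers none reached the level needed for testing, and the 5 with a row summed to less than 1 FPKM in each library. Relative depth, set to 1 for the first vector library, ran from 1 to 1.26 in the vector group and from 1.04 to 1.43 in the ADAMTS1 group. The absolute depth is unknown. Separate cultures are not named for the libraries of a group, so a p-value below measures the spread between libraries, and this spread may be technical.

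None of the proteasome genes passed the test. Genes with a mean of at least 1 FPKM were compared with limma on log2(FPKM + 1), and a change below is the ADAMTS1 mean less the vector mean on that scale ± SE, with 3 libraries per group. This tested 44 of the 47 proteasome genes among 11897 genes. At an adjusted p under 0.05, 0.0672% of all tested genes and 0 of the 44 were called, and the lowest adjusted p was 0.190, for PSME1. At an unadjusted p under 0.05 there were 7 of 44 (15.9%), beside 12.2% of all genes. PSMA1 and PSMB7 were higher in the ADAMTS1 group at that level, beside 5.42% of all genes, and PSMB8, PSMB9, PSMB10, PSMD4 and PSME1 were lower, beside 6.78%. This split of 2 higher and 5 lower depended on scaling: it was 0 and 6 with a common sum of FPKM, 3 and 3 with median of ratios, and 3 and 5 with a common upper quartile. The median change of the 44 genes was 0.0074, and that of all genes was −0.0078. Negative changes made up 45.5% of the proteasome genes and 53.5% of all genes.

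Summed over the machinery, the level was close between groups. The 47 genes summed to 0.849% to 0.864% of all FPKM in each library, with the vector and ADAMTS1 ranges overlapping. Changes lay within 0.05 of 0 for 29 of the 44 genes and within 0.1 of 0 for 38. The 95% intervals of the 44 changes, turned into folds on the log2(FPKM + 1) scale, ran from 0.734 at the lowest bound to 1.22 at the highest. Groups that did not overlap were found for 8 of the 44 genes (18.2%), beside 18.8% of all tested genes. PSMA3, PSMB7, PSMC6 and PSME3 lay higher in all 3 ADAMTS1 libraries, 4 genes beside 8.15% of all tested genes. PSMB4, PSMB9, PSMD4 and PSME1 lay lower, 4 genes beside 10.6%.

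**Figure D1:**
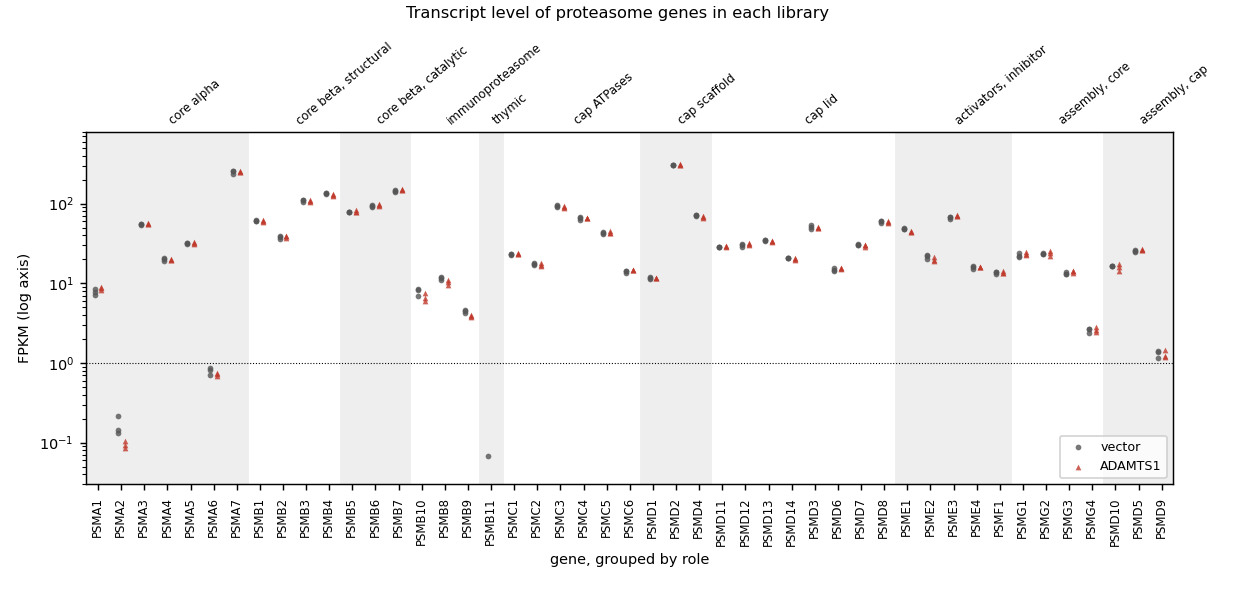
FPKM of each proteasome gene (log axis) in the 3 vector libraries (grey circles) and the 3 ADAMTS1 libraries (red triangles), with genes grouped by role on the horizontal axis. The dotted line marks the mean of 1 FPKM needed for testing, and PSMB11 has 1 point because its other 5 libraries were listed at 0. Levels range from PSMB11 and PSMA2, below the line, to PSMD2 at the top with 303 to 314 FPKM, and the groups lie on each other for most genes.

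The alpha subunits form the gate of the barrel and the surface to which caps bind. They spanned a wide range of levels although each occupies the same number of places in the complex. PSMA7 was the highest, at 234, 259 and 257 FPKM with the vector and 250.4, 257 and 245 FPKM with ADAMTS1, with overlapping groups and a change of 0.0062 ± 0.042 (adjusted p = 0.965). PSMA1 was the lowest of the tested alpha genes, and the mean level of PSMA7 was 30.6-fold that of PSMA1. The PSMA1 locus overlaps another entry on the same strand, at a mean of 0.0311 FPKM. How fragments were assigned there is not stated in the labels, so the level of PSMA1 and this ratio are uncertain. Such an overlap is not particular to low genes. It was found for 11 of the 47 proteasome genes, among them PSMB5, at a mean of 79.3 FPKM, and PSMA3, at 55.3 FPKM. PSMA1 also had the largest positive change of all 44 genes, 0.14 ± 0.060 (unadjusted p = 0.0496, adjusted p = 0.408). Its levels were 7.08, 7.75 and 8.38 FPKM with the vector and 8.60, 8.34 and 8.91 FPKM with ADAMTS1, so that the highest vector library lay above the lowest ADAMTS1 library. PSMA4 had the only negative change among the tested alpha genes, −0.014 ± 0.035 (adjusted p = 0.902), with mean levels of 20.04 and 19.8 FPKM. PSMA3 was at 55.0, 55.4 and 53.4 FPKM with the vector and 55.9, 56.4 and 56.1 FPKM with ADAMTS1, a change of 0.040 ± 0.025 (adjusted p = 0.566) with groups that did not overlap.

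The deposited table listed 2 alpha genes at very low levels, although the barrel cannot form without their products. PSMA2 was at 0.217, 0.134 and 0.143 FPKM with the vector and at 0.106, 0.0861 and 0.0944 FPKM with ADAMTS1. The groups did not overlap, and with no filter on low values the change was −0.087 (adjusted p = 0.725). PSMA6 was at 0.868, 0.707 and 0.819 FPKM with the vector and 0.685, 0.739 and 0.722 FPKM with ADAMTS1, with overlapping groups. Each overlaps another entry on the same strand, at a mean of 0.0129 FPKM for the entry over PSMA2 and 0.0548 FPKM for the one over PSMA6. The rule that assigned fragments to these loci is not stated in the labels, and both values are uncertain.

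The structural beta subunits PSMB1, PSMB2, PSMB3 and PSMB4 complete the inner rings without an active site. Their mean levels ran from 37.9 to 132 FPKM over the 6 libraries and their ADAMTS1 to vector ratios from 0.960 to 1.02. PSMB4 was both the highest and the one with the lowest change. It was at 137, 134 and 133 FPKM with the vector and 126, 131 and 129.5 FPKM with ADAMTS1. The groups did not overlap, and the change was −0.059 ± 0.026 (adjusted p = 0.417). PSMB2 had the only positive change, 0.028 ± 0.036 (adjusted p = 0.798).

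The constitutive catalytic subunits each had a positive change that did not pass the test. PSMB7, the trypsin-like subunit, was at 142, 147 and 141 FPKM with the vector and at 151, 149.9 and 148 FPKM with ADAMTS1. All 3 ADAMTS1 libraries lay above the vector libraries, with a change of 0.060 ± 0.025 (unadjusted p = 0.0444, adjusted p = 0.395). PSMB5, the chymotrypsin-like subunit that bortezomib blocks, was at mean levels of 78.4 ± 0.983 and 80.1 ± 2.02 FPKM (SD), a change of 0.030 ± 0.027 (adjusted p = 0.698). PSMB6, the caspase-like subunit, was at 93.3 ± 3.72 and 95.8 ± 2.48 FPKM, a change of 0.039 ± 0.035 (adjusted p = 0.713). The groups overlapped for both. PSMB11, the beta subunit specific to the thymus, was listed at 0.0679 FPKM in the first vector library and at 0 in the other 5 libraries. PSMA8, the alpha subunit of the testis, was not analysed here.

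The immunoproteasome genes had the lowest changes of all classes, with a median of −0.17 over 3 genes, beside 0.019 over the 12 tested constitutive core genes. Their summed level was 22.4, 24.7 and 24.6 FPKM with the vector and 20.1, 22.5 and 20.03 FPKM with ADAMTS1, so the second ADAMTS1 library lay just above the first vector library. PSMB9 (chromosome 6, 32844136 to 32859851, hg38), the inducible partner of PSMB6, was at 4.53, 4.66 and 4.21 FPKM with the vector. With ADAMTS1 it was at 3.75, 3.87 and 3.99 FPKM. All ADAMTS1 libraries lay below all vector libraries, with a change of −0.17 ± 0.052 (unadjusted p = 0.0151, adjusted p = 0.305). PSMB8 (chromosome 6, 32840717 to 32844679), the inducible partner of PSMB5, was at 10.9, 11.6 and 12.0 FPKM with the vector and at 10.4, 11.1 and 9.56 FPKM with ADAMTS1. The second ADAMTS1 library lay within the vector range, and the change was −0.14 ± 0.059 (unadjusted p = 0.0466, adjusted p = 0.401).

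PSMB10, the inducible partner of PSMB7 on chromosome 16 (67934506 to 67936864), had the lowest change of the 44 genes, −0.23 ± 0.094 (unadjusted p = 0.0455, adjusted p = 0.398). It was at 6.99, 8.52 and 8.30 FPKM with the vector and at 5.94, 7.51 and 6.48 FPKM with ADAMTS1. The first vector library lay below the second ADAMTS1 library, so the groups overlapped. The table's positions of PSMB8 and PSMB9 overlap by 544 bases on opposite strands, and PSMB9 also overlaps TAP1 on the opposite strand. The labels do not say whether fragments were counted by strand, so the levels of the neighbours cannot be fully told apart.

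**Figure D2:**
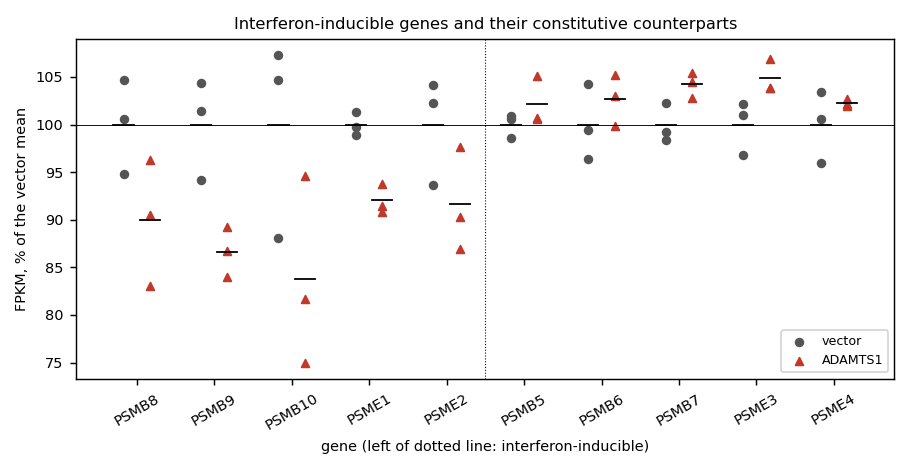
FPKM of each library as a percent of the gene's vector mean, for the 5 interferon-inducible genes left of the dotted line and for 5 constitutive counterparts right of it. Circles are vector libraries, triangles ADAMTS1 libraries and bars the group means. The ADAMTS1 means lie below 100% for the inducible genes, with separate groups for PSMB9 and PSME1, and above 100% for PSMB5, PSMB6, PSMB7, PSME3 and PSME4.

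Each inducible subunit takes the place of 1 constitutive subunit, so their ratio was computed within each library. PSMB8 was at 13.8%, 14.96% and 15.3% of PSMB5 with the vector and at 13.2%, 13.4% and 12.1% with ADAMTS1. PSMB9 was at 4.66%, 5.18% and 4.54% of PSMB6 with the vector and at 3.90%, 3.95% and 4.28% with ADAMTS1. In both pairs all ADAMTS1 libraries lay below all vector libraries. The PSMB10 to PSMB7 ratio was 4.90%, 5.80% and 5.88% with the vector and 3.93%, 5.01% and 4.39% with ADAMTS1, and these groups overlapped. The log2 differences were −0.18, −0.25 and −0.32 in that order. An exact two-sided permutation test gave p = 0.10 for the first pair and for the second, and 0.20 for the third (0.15, 0.15 and 0.20 adjusted over the 3 ratios). With 3 libraries against 3 it cannot go below 0.10, and no ratio can pass 0.05. In both groups the transcripts of the constitutive subunits were the more abundant by these ratios, and protein was not measured.

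**Figure D3:**
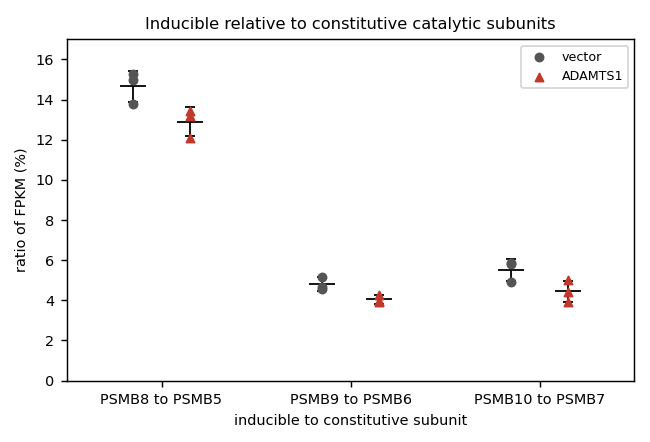
FPKM of each inducible catalytic subunit as a percent of the constitutive subunit it replaces, per library (vector circles, ADAMTS1 triangles), with group mean and SD as bars. The PSMB8 to PSMB5 ratio lies between 12.1% and 15.3% and the other ratios between 3.90% and 5.88%, with no overlap between groups for the first pair and the second.

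Activators other than the ATP-driven cap include inducible and constitutive forms. PSME1 and PSME2 encode the alternating subunits of the interferon-inducible activator and lie 4395 bases apart on chromosome 14 (24136163 to 24138967 and 24143362 to 24147570). PSME1 was at 48.5, 49.2 and 48.0 FPKM with the vector and at 44.4, 45.6 and 44.1 FPKM with ADAMTS1. The groups were well apart relative to their spread, and the change was −0.12 ± 0.025 (unadjusted p = 0.00216, adjusted p = 0.190). PSME1 overlaps EMC9 on the opposite strand, at a mean of 9.84 FPKM, and whether fragments were counted by strand is not stated. Of the 47 proteasome genes, 22 overlap another entry on the opposite strand. PSME2 was at 22.2, 22.7 and 20.4 FPKM with the vector and 21.2, 19.7 and 18.9 FPKM with ADAMTS1, with overlapping groups and a change of −0.12 ± 0.055 (adjusted p = 0.435). PSME3, which forms a nuclear activator, had the highest level and the largest positive change of the class. It was at 64.6, 67.4 and 68.2 FPKM with the vector and 71.3, 69.3 and 69.3 FPKM with ADAMTS1, with no overlap of the groups and a change of 0.068 ± 0.029 (adjusted p = 0.412). PSME4, the activator known from histone degradation, changed by 0.031 ± 0.035, and the inhibitor PSMF1 by 0.014 ± 0.037 (adjusted p = 0.771 and 0.907).

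Taking the 5 inducible genes apart from the rest gave ratios of the group means from 0.837 to 0.920 for them and from 0.953 to 1.11 for the other 39 tested genes. The next genes in the order of changes were PSMD4 at −0.069 and PSMB4 at −0.059. The inducible genes were thus the 5 lowest of 44, though none passed the test over all genes.

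**Figure D4:**
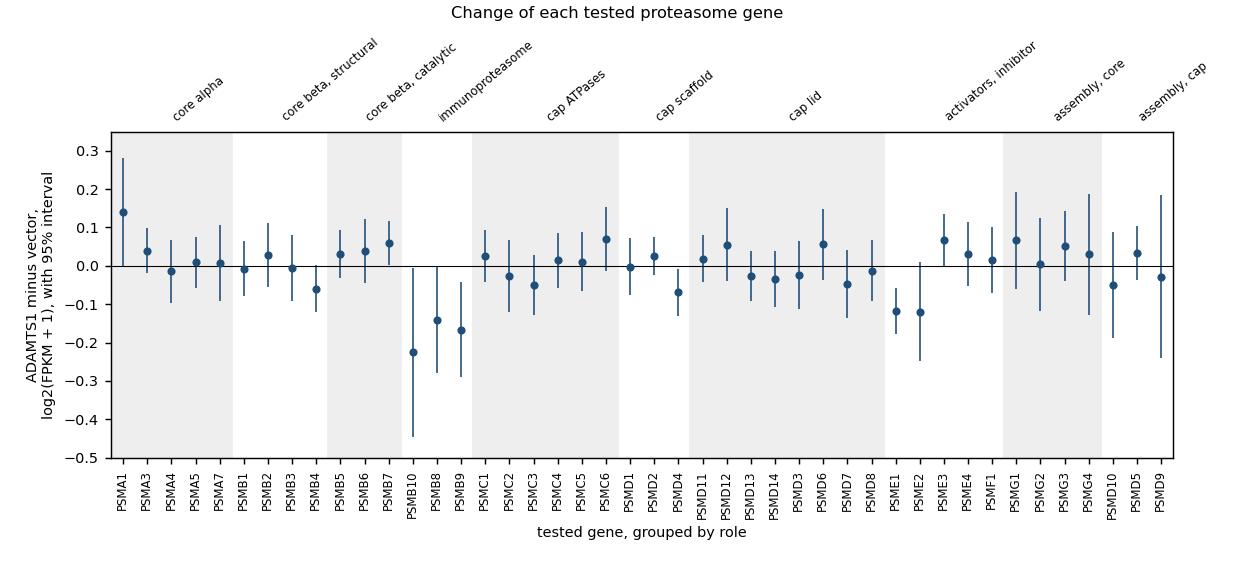
Change of each of the 44 tested proteasome genes, as the ADAMTS1 mean less the vector mean of log2(FPKM + 1), with 95% intervals from limma as vertical bars and genes grouped by role. PSMB10, PSMB9, PSMB8, PSME2 and PSME1 are the 5 lowest points, between −0.23 and −0.12, while PSMA1 is the highest at 0.14.

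In the cap, the summed level of the 17 genes was 911 ± 4.46 FPKM with the vector and 911 ± 4.89 FPKM with ADAMTS1 (SD), and the median change was −0.0021. The ATPases pull the substrate into the barrel. PSMC3 was the highest of the 6, at 95.8, 89.6 and 94.1 FPKM with the vector and 92.0, 90.4 and 87.5 FPKM with ADAMTS1, and its change of −0.049 ± 0.033 (adjusted p = 0.599) was the lowest among them, with overlapping groups. PSMC6 was at 13.4, 14.1 and 14.3 FPKM with the vector and 14.5, 14.8 and 14.6 FPKM with ADAMTS1. Its groups did not overlap, with a change of 0.070 ± 0.035 (adjusted p = 0.480). PSMC1, PSMC2, PSMC4 and PSMC5 had adjusted p-values from 0.769 to 0.917.

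PSMD2, a scaffold of the cap that receives the shuttle factors carrying ubiquitinated proteins, had the highest level of all proteasome genes. It was at 306, 303 and 303 FPKM with the vector and 306, 314 and 308 FPKM with ADAMTS1, overlapping, with a change of 0.025 ± 0.021 (adjusted p = 0.683). PSMD4, a receptor for ubiquitin chains, was at 69.9, 71.8 and 71.5 FPKM with the vector and 69.2, 66.5 and 67.5 FPKM with ADAMTS1. Its ADAMTS1 libraries lay below the vector libraries, with a change of −0.069 ± 0.026 (unadjusted p = 0.0308, adjusted p = 0.358). PSMD1, the other large scaffold, was at 11.7 and 11.6 FPKM on average, a change of −0.0021 ± 0.032.

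The lid removes the ubiquitin chain through PSMD14, the deubiquitinase of the cap, which was at mean levels of 20.8 ± 0.0800 and 20.3 ± 0.579 FPKM (SD) with a change of −0.034 ± 0.031 (adjusted p = 0.706). PSMD7, the partner of PSMD14 in that enzyme pair, had the lowest change of the 8 lid genes, −0.047 ± 0.038 (adjusted p = 0.665). PSMD6 had the highest, 0.056 ± 0.040 (adjusted p = 0.618), and PSMD8 the highest level, with means of 59.4 and 58.9 FPKM. The groups of all 8 lid genes overlapped. PSMD3, PSMD11, PSMD12 and PSMD13 lay between those changes, with adjusted p-values from 0.636 to 0.844.

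The assembly chaperones were lower in level than most core genes, and none had separate groups. PSMG1 and PSMG2 form the pair that starts the alpha ring. PSMG1 was at 23.9, 22.0 and 21.3 FPKM with the vector and 22.4, 24.8 and 23.4 FPKM with ADAMTS1 (change 0.066 ± 0.053, adjusted p = 0.665). PSMG2 was at 23.5, 23.6 and 24.3 FPKM with the vector and 24.3, 25.3 and 22.0 FPKM with ADAMTS1 (0.0036 ± 0.051, adjusted p = 0.983). For both genes the libraries of the groups were interleaved.

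PSMG3 and PSMG4 form the second chaperone pair of the alpha ring. PSMG3 was at 13.01, 13.98 and 13.2 FPKM with the vector and 14.1, 14.2 and 13.5 FPKM with ADAMTS1 (0.051 ± 0.039, adjusted p = 0.646). PSMG4 was much lower, at 2.63, 2.37 and 2.67 FPKM with the vector and 2.83, 2.48 and 2.59 FPKM with ADAMTS1 (0.030 ± 0.067, adjusted p = 0.889). Both chaperones had overlapping groups.

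The chaperones of the ATPase ring were likewise close between groups. PSMD5 was at 25.5, 26.2 and 25.0 FPKM with the vector and 26.7, 26.0 and 25.8 FPKM with ADAMTS1 (0.033 ± 0.030, adjusted p = 0.712). PSMD10, also known as gankyrin, was at 16.6, 16.3 and 16.3 FPKM with the vector and 14.4, 17.2 and 15.9 FPKM with ADAMTS1 (−0.049 ± 0.059, adjusted p = 0.787), and the spread among its ADAMTS1 libraries took in the vector values. PSMD9 was the lowest tested proteasome gene, at 1.39, 1.17 and 1.42 FPKM with the vector and 1.45, 1.19 and 1.21 FPKM with ADAMTS1 (−0.028 ± 0.090, adjusted p = 0.925).

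Genes that work with the proteasome but carry other names were examined from a list. The list held non-PSM subunits, assembly and import factors, shuttle factors, the transcription factor NFE2L1 with its processing enzymes, and the ubiquitin genes. All 39 were tested, none passed the threshold (0.0672% of all genes did), and 2 were lower at an unadjusted p under 0.05, beside 6.78% of all genes, with 0 higher beside 5.42%. UBB, a polyubiquitin gene, was at 207, 200.3 and 206 FPKM with the vector and 191, 195 and 186 FPKM with ADAMTS1, a change of −0.10 ± 0.026 (unadjusted p = 0.00588, adjusted p = 0.238). SYVN1, the ubiquitin ligase of the endoplasmic reticulum that targets NFE2L1 for degradation, was at 13.1, 12.7 and 12.6 FPKM with the vector and 11.9, 11.7 and 11.9 FPKM with ADAMTS1, a change of −0.11 ± 0.032 (unadjusted p = 0.0112, adjusted p = 0.275). The groups of both genes were apart, as were those of AKIRIN2 and NPLOC4. These 4 of the 39 genes lay lower in all ADAMTS1 libraries, beside 10.6% of all tested genes, and 0 lay higher, beside 8.15%.

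Of the other associated genes, those with the smallest p-values of their lists are given, and NFE2L1 for its role. POMP, the chaperone that completes the core, had a change of 0.046 ± 0.026, and AKIRIN2, which carries proteasomes into the nucleus, one of −0.055 ± 0.029 (adjusted p = 0.525 and 0.497). The ubiquitin receptor ADRM1 was at 111 and 108 FPKM (adjusted p = 0.715), and the proteasome adaptor ECPAS at 25.4 and 25.9 FPKM (adjusted p = 0.744). Among delivery factors, NPLOC4 had a change of −0.053 ± 0.028 (adjusted p = 0.502). MAFK, a partner of NFE2L1, was at 8.02 and 7.64 FPKM (adjusted p = 0.693). NFE2L1, which drives proteasome genes when proteasome activity is short, was at 51.7 ± 2.03 and 50.7 ± 2.29 FPKM (SD), with overlapping groups and a change of −0.027 ± 0.042 (adjusted p = 0.842).

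NFE2L1 binds the antioxidant response element, so matches to its core TGACNNNGC before core and cap genes are shown as 30-base windows on the gene's strand, from RefSeq (GRCh38.p14). Capitals mark the match, which in PSMC5 lies on the opposite strand.
PSMA4 (chr15:78540650-78540679, + strand): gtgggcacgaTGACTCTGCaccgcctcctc
PSMB3 (chr17:38752627-38752656, + strand): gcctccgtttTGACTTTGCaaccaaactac
PSMC5 (chr17:63827654-63827683, + strand): gaccggatctGCTGTGTCAgcgccgccctc
PSMD3 (chr17:39980760-39980789, + strand): tcccctttgtTGACTCGGCcatcggcctgc
PSMD12 (chr17:67366723-67366752, - strand): agacaaaaccTGACGCTGCaggctggagtg

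These matches began 126 bases before the start in PSMA4, 104 in PSMB3, 57 in PSMC5, 37 in PSMD3 and 165 in PSMD12. The motif was found in 26.0% of the 50 proteasome windows and in 10.9% of all windows. By class it was found in 2 of 14 constitutive core windows (14.3%), 3 of 18 cap windows (16.7%), 4 of 7 assembly windows (57.1%) and 3 of 6 windows of activators and the inhibitor. CCAAT, a common promoter box, was found in 38.0% and 32.0%. The changes of the 5 genes shown were small in both directions, from −0.024 for PSMD3 to 0.055 for PSMD12.

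Genes of the interferon pathway and of peptide supply to MHC class I were set beside the inducible subunits. IRF1 and NLRC5, which drive the inducible subunits and MHC class I genes, were at 2.38 and 2.32 FPKM and at 2.36 and 2.30 FPKM on average, with overlapping groups. Of the 8 tested regulators, 1 had an unadjusted p under 0.05, beside 12.2% of all genes, and none an adjusted p under 0.05. JAK1, a kinase of interferon receptors, was at 15.7, 16.2 and 15.8 FPKM with the vector and 16.7, 16.996 and 16.9 FPKM with ADAMTS1, a change of 0.082 ± 0.029 (unadjusted p = 0.0255, adjusted p = 0.342). JAK2 was at 1.28, 1.20 and 1.12 FPKM with the vector and 0.957, 1.09 and 1.09 FPKM with ADAMTS1. Its change was −0.10 ± 0.084 (adjusted p = 0.668). JAK1 lay higher in all ADAMTS1 libraries, 1 gene beside 8.15% of all tested genes, and JAK2 lay lower, 1 gene beside 10.6%. The receptor gene IFNGR1 had a change of −0.12 ± 0.082 (adjusted p = 0.592).

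Of 9 peptide supply genes 8 had negative changes and none passed the threshold. HLA-B was at 65.1, 66.2 and 65.2 FPKM with the vector and 54.5, 57.6 and 52.9 FPKM with ADAMTS1, a change of −0.25 ± 0.034 (adjusted p = 0.0922). HLA-C was at 53.3, 50.2 and 49.5 FPKM with the vector and 43.9, 41.4 and 42.3 FPKM with ADAMTS1, a change of −0.25 ± 0.037 (adjusted p = 0.0922). Both genes had separate groups, with ratios of the group means of 0.840 and 0.835 beside 0.837 for PSMB10. Fragments of HLA genes can be split between near-identical copies, so their levels are uncertain. TAP1 encodes a peptide transporter. Its RefSeq start lies 488 bases from that of PSMB9, while in the deposited positions TAP1 lies within PSMB9. TAP1 was at 10.2, 9.64 and 8.99 FPKM with the vector and 8.63, 9.32 and 8.93 FPKM with ADAMTS1. Its groups overlapped (change −0.088 ± 0.052, adjusted p = 0.540). In bulk libraries, fewer cells with a transcript and less of it per cell cannot be told apart for any of these genes.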

How the data were processed

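RNA of 6 MDA-MB-231 samples (3 vector, 3 ADAMTS1) was sequenced on Illumina libraries, per the labels' protocols. The authors deposited FPKM values, 1 per gene and library. FastQC, HISAT2, StringTie and the build hg38 are named per the submitters' processing notes, without versions. Neither the annotation nor the strand setting is stated there. FPKM is scaled to length and library total, so changes are relative to the rest of the library, and the depth is unknown beyond its ratio between libraries, read from the steps between low values.

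From 32119 entries, 284 that repeated a symbol were removed, the highest mean being kept. No proteasome symbol was repeated. Genes averaging at least 1 FPKM were tested with limma 3.58.1 (R 4.3.3; lmFit, eBayes with trend) on log2(FPKM + 1), two-sided, with Benjamini-Hochberg adjustment over all 11897 genes and a threshold of 0.05. The fold change of low genes is understated by the pseudocount. The code was tested on simulated data. Ratios of catalytic subunits were compared by exact permutation. Promoters came from a RefSeq table (GRCh38.p14) and were matched by symbol for 41 genes.

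Values were given per library for inducible, assembly and tissue-restricted genes. In the other classes the highest gene and the extreme changes were named, and in each associated list the genes past the threshold or the 2 with the smallest p. Genes with groups that did not overlap, IRF1, NLRC5, NFE2L1, PSMD14, the HLA genes and TAP1 were named for their role or values. The genes and lists were chosen with earlier results of these data known. Some genes that the rule names are not reported here. Alternatives were other pseudocounts, filters, scalings and variance models, a replicate term, and leaving out each library.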

Additional observations from a re-analysis of the deposited data

How the results depend on the processing

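No proteasome gene passed the threshold in any of 14 alternative fits, and the ADAMTS1 change stayed between 5.96 and 6.15. The count of proteasome genes at an unadjusted p under 0.05 was 7, and it was 2 to 5 when single libraries were left out (2 without either vector replicate 2 or ADAMTS1 replicate 3, and 4 if ADAMTS1 replicate 1 was dropped). With eBayes without trend there were 2. The cause was not tested. The 5 interferon-inducible genes had negative changes in every alternative in which they were tested: PSMB10 from −0.31 to −0.16, PSMB9 from −0.20 to −0.14, PSMB8 from −0.19 to −0.090, PSME2 from −0.16 to −0.085 and PSME1 from −0.13 to −0.11. Their lowest adjusted p in any alternative was 0.128, for PSME1. The median change of the cap ATPases was −0.011 without vector replicate 2.

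Changes close to 0 turned sign in 16 genes. Without single libraries they ranged from −0.040 to 0.0069 for PSMA4, −0.0097 to 0.023 for PSMA5, −0.040 to 0.032 for PSMA7, −0.030 to 0.013 for PSMB1, −0.0013 to 0.052 for PSMB2, −0.038 to 0.016 for PSMB3, −0.015 to 0.033 for PSMC4, and −0.014 to 0.028 for PSMC5. The others ranged from −0.015 to 0.012 for PSMD1, −0.061 to 0.011 for PSMD3, −0.042 to 0.0071 for PSMD8, −0.081 to 0.0019 for PSMD9, −0.11 to 0.013 for PSMD10, −0.011 to 0.033 for PSMF1, −0.039 to 0.060 for PSMG2 and −0.0083 to 0.060 for PSMG4. Scaling to a common sum gave −0.0023 for PSMA7 and −0.0046 for PSMG2. Median of ratios scaling gave 0.00092 for PSMB1, 0.0026 for PSMB3 and 0.0055 for PSMD1, and upper quartile scaling gave 0.0023 for PSMD1. None of these genes passed a test.

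With the replicate number as a block, 5 proteasome genes had an unadjusted p under 0.05, none passed the threshold, and the exact paired test of each catalytic ratio gave p = 0.25, the smallest that 3 pairs allow. Deviations of same-numbered libraries correlated at −0.0022, 0.018 and −0.093, and not every library correlated best with its own number. These values gave no sign that the numbers pair the samples, but with 3 libraries per group they cannot exclude a weak pairing. Summing the entries of a repeated symbol gave no value, since no proteasome symbol was repeated. With 3 libraries per group and unknown depth, small changes of low genes such as PSMD9 could not be resolved.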

Other observations

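Outside the proteasome genes, the table holds copies of them described as pseudogenes, which were looked at after their values were seen. Of 35 such entries outside chromosome Y, 3 had a mean of at least 1 FPKM. A PSMC6 copy on chromosome 8 changed by 0.15 ± 0.13 (limma, adjusted p = 0.674), with overlapping groups. A PSMC5 copy on chromosome 7 changed by −0.21 ± 0.12 (adjusted p = 0.532), also with overlapping groups. PSMC1P1, a copy of the ATPase gene PSMC1 on chromosome 3 (68635705 to 68637024, hg38), was at 2.33, 2.47 and 2.53 FPKM with the vector and at 3.41, 3.28 and 3.83 FPKM with ADAMTS1. All ADAMTS1 libraries lay above all vector libraries, and the change was 0.39 ± 0.066 (limma, unadjusted p = 0.000564, adjusted p = 0.124). This was a larger change than that of any tested proteasome gene, and it did not pass the threshold. PSMC1 itself was at 23.1 ± 0.317 and 23.5 ± 0.496 FPKM (SD, n = 3), with overlapping groups.

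PSMC1P5, a short copy on chromosome 5 (107195156 to 107195332), was listed at 0 in all 3 vector libraries and at 0.755, 1.36 and 0.993 FPKM in the ADAMTS1 libraries. Its mean was below the level needed for testing. Fragments can match a gene and its copies equally well, and the labels do not say how they were assigned, so both values are uncertain.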
